A study of Mus musculus with 141 samples.

Results

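Glycolysis splits glucose into pyruvate in 10 enzymatic steps, and 1 gene was followed for each step, in pathway order Hk1, Gpi1, Pfkm, Aldoa, Tpi1, Gapdh, Pgk1, Pgam1, Eno1 and Pkm. These 10 genes, of 43432 gene identifiers in the mRNA tables, were chosen by the level of Tpi1 in the medial habenula (MHb), which was higher after 48 h of nicotine withdrawal than in control mice, and the other 9 were taken with it as the remaining steps of the pathway. Values of that contrast are therefore given as a description, without a test. The mRNA libraries came from the MHb, from the interpeduncular nucleus (IPN), which the MHb innervates, and from the nucleus accumbens (NAc), a reward region outside that circuit. Male C57BL/6J mice drank saccharine at 3 g/L with nicotine base at 200 µg/ml, given as the tartrate, or with tartaric acid instead, from 6 weeks of age. TA mice had tartaric acid for 6 weeks and Nic mice had nicotine for 6 weeks, NAWD mice had nicotine for 6 weeks and then 48 h without it, and NLWD mice had nicotine for 6 weeks and then 4 weeks without it. TAL mice had tartaric acid for 10 weeks and are the age-matched controls of NLWD mice. All groups are wild-type males of 1 strain, all drank saccharine, and every library pools punches from 4 animals, so the replicates are pools and the spread between single mice is not seen. The IPN had 5 libraries in each of the groups TA, Nic and NAWD, 3 in TAL and 2 in NLWD. The MHb had 4 in each of the first 3 groups and 5 in each of the others, and the NAc had 5 in every group but NAWD, which had 4.

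Hexokinase (Hk1) traps glucose in the cell by phosphorylating it, glucose-6-phosphate isomerase (Gpi1) turns the product into fructose 6-phosphate, and phosphofructokinase (Pfkm, the muscle-type subunit, which the brain also uses) makes the committed, strongly regulated step. Aldolase A (Aldoa) cleaves the sugar into 2 triose phosphates, which triosephosphate isomerase (Tpi1) interconverts. Glyceraldehyde-3-phosphate dehydrogenase (Gapdh) yields NADH, phosphoglycerate kinase (Pgk1) and pyruvate kinase (Pkm) yield ATP, and phosphoglycerate mutase (Pgam1) and alpha-enolase (Eno1) carry out the steps between these kinases. In the brain glucose is the main fuel, astrocytes and oligodendrocytes can pass lactate to neurons, and neurons depend on mitochondrial oxidation of pyruvate. Several of these enzymes have other forms made from other genes, among them aldolase C (Aldoc), typical of astrocytes, and gamma-enolase (Eno2), typical of neurons.

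Tpi1 lies on chromosome 6 at 124810586 to 124814296 (minus strand) and Gapdh on the same chromosome at 125161715 to 125166467 (minus strand), in mm10 coordinates. Aldoa lies on chromosome 7 at 126795234 to 126800751 (minus strand) and Gpi1 on the same chromosome at 34201330 to 34230336 (minus strand). Hk1 lies on chromosome 10 at 62268855 to 62379908 (minus strand), Pfkm on chromosome 15 at 98092589 to 98132451 (plus strand) and Pgk1 on chromosome X at 106187100 to 106203699 (plus strand). Pgam1 lies on chromosome 19 at 41911923 to 41918660 (plus strand), Eno1 on chromosome 4 at 150236721 to 150248879 (plus strand) and Pkm on chromosome 9 at 59656368 to 59679375 (plus strand). The values are gene totals over 3 (Pgk1 and Pgam1) to 20 (Hk1) annotated transcripts, 6 for Tpi1, of which 4 retain an intron. Gapdh, Pgk1, Aldoa, Tpi1, Pkm, Pgam1 and Eno1 have near-identical copies or pseudogenes in the mouse genome, between which RSEM apportions shared reads, so that their levels are uncertain to that extent.

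Promoters are shown for Tpi1, whose level chose the genes, for Aldoa, which stood beside it in the same libraries, and for Pgk1 and Gapdh, which differed little there. Each sequence holds the 250 bases before the annotated start in RefSeq (GRCm38.p6), written 5′ to 3′ on the strand of the gene. Capitals mark ACGTG or its reverse complement CACGT, the core of the hypoxia response element, and GGGCGG or CCGCCC, the GC box. The windows are chr6:124814159-124814408 (Tpi1, minus strand), chr7:126799179-126799428 (Aldoa, minus strand, 1 of its 3 starts), chrX:106186850-106187099 (Pgk1, plus strand) and chr6:125165774-125166023 (Gapdh, minus strand). The gene spans given above are those of GENCODE, whose starts differ from these. The Tpi1 window therefore overlaps the listed Tpi1 gene, up to 124814296, and the Aldoa and Gapdh windows lie inside the listed genes.
Tpi1: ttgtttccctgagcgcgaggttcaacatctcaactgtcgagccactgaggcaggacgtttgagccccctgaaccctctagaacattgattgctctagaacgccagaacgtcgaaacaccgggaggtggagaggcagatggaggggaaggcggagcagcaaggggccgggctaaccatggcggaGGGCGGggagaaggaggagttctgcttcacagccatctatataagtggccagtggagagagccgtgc
Aldoa: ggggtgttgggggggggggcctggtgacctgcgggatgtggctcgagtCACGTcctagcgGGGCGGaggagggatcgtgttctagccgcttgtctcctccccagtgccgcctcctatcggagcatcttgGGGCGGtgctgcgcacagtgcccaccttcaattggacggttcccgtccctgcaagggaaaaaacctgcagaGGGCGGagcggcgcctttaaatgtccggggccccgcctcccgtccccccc
Pgk1: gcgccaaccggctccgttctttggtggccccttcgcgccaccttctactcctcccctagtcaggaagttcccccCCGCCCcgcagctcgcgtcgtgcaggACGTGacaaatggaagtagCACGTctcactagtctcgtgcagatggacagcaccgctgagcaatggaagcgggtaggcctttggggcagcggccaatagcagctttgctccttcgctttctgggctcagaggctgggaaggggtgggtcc
Gapdh: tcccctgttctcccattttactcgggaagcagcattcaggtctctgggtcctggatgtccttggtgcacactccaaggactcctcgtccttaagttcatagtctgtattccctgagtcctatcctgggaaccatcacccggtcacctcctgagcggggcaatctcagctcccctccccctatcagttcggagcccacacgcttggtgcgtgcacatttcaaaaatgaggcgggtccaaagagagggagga
The Tpi1 window, 58.4% G and C, holds 1 GC box, in the part that overlaps the listed gene, and no ACGTG on either strand. The Aldoa window, 67.6% G and C, holds 1 ACGTG and 3 GC boxes. The Pgk1 window, 62.8% G and C, holds 2 ACGTG and 1 GC box, and the Gapdh window, 55.6% G and C, holds neither motif. All 10 genes were matched to 19 RefSeq windows of this kind. In at least 1 of its windows, ACGTG was found in 5 of the 10 genes and GGGCGG in 6, searching both strands. By window, 7 of 19 held ACGTG and 8 of 19 held GGGCGG, beside 16.6% and 32.7% of all 32851 windows. The E-box CACGTG, which overlaps ACGTG, was found in 1 gene and in 6.02% of all windows, and TATAAA in none of the 10 genes and in 12.4% of all windows.

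Levels are in TPM, which sets the reads of each gene per transcript length against those of the whole library and keeps no record of depth. Differences are on the scale of log2(TPM + 1), which understates changes of low genes, and were tested with limma across all genes, with a call at an adjusted p (Benjamini-Hochberg) under 0.01. Fits of treatments carry 1 or 2 factors of unwanted variation, with gene weights estimated from differences among libraries of one group. Such factors can also carry differences between groups. Mapped reads ran from 31405268 to 153458226 per library. The highest correlation between libraries of a region was 0.994, and no library was a copy of another. Of 9 marker genes of the MHb, 9 were called higher in the MHb than in the IPN of TA mice and 8 higher than in the NAc, and of 7 markers of the NAc, 7 were called lower in the IPN and 7 lower in the MHb than in the NAc. Of 7 markers of the IPN, 5 could be tested, and 5 were called lower in the MHb than in the IPN. Against the NAc, 1 was called higher and 2 lower in the IPN, with a median difference of -0.68. Otp was at 18.4 ± 4.91 TPM (SD, n = 5) and Pax7 at 11.8 ± 3.33 TPM (SD, n = 5) in the IPN of TA mice, and both were below 0.1 TPM on average in the other regions. The GABAergic genes of that list were also high in the NAc, where the list summed to 1631 to 2545 TPM against 1175 to 2052 TPM in the IPN. The MHb libraries carried markers of choroid plexus and ependyma, which line the adjoining ventricle, at a summed 10390 to 27564 TPM in TA mice, against at most 215 TPM in the IPN and 28.7 TPM in the NAc.

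Several libraries stood apart from the others of their group. In the MHb of TA mice, replicate 1 had 337 TPM of Tpi1, where the other 3 had 94.9 to 109 TPM. In the NAc of NAWD mice, replicate 2 had 2933 TPM of Tpi1, where the other 3 had 109 to 452 TPM, and it was also the highest in 8 other members. Both libraries were the highest of their group in the summed level of 7 oligodendrocyte markers (Mbp, Mog, Mag, Cnp, Mobp, Opalin and Cldn11), at 1179.6 TPM where the other MHb libraries of TA mice had at most 873 TPM, and at 7191 TPM where the other NAc libraries of NAWD mice had at most 1503 TPM. Without Mbp, which encodes a main protein of myelin and made up much of that sum, they were still the highest of their group, at 579 TPM and 1529.8 TPM. Results that rest on these libraries are given with and without them. In all of these bulk samples, fewer cells of a type and less RNA per cell cannot be told apart.

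In control mice the mRNAs of the pathway differed widely in level, and the MHb had less of most of them than the IPN or the NAc. Eno1 had the highest mean in each region, 2693 ± 1045 TPM (SD, n = 5) for the IPN, 1413 ± 319 TPM (SD, n = 4) for the MHb and 1609.6 ± 299.9 TPM (SD, n = 5) for the NAc. Of the summed TPM of the 10 genes, Eno1 made up 30.3%, 42.8% and 29.2% in that order. Aldoa was the next in the MHb and the NAc, and came after Tpi1 in the IPN, at 1564 ± 399, 588 ± 197 and 1150.0 ± 348 TPM (SD, n = 5, 4 and 5) for IPN, MHb and NAc. Gapdh was at 952 ± 233, 469 ± 51.3 and 657 ± 106 TPM (SD, n = 5, 4 and 5), the place after Aldoa in the MHb and after Aldoa and Tpi1 in the IPN and the NAc. The lower end of the order was held by Pgk1 in the IPN (90.6 ± 17.9 TPM, SD, n = 5) and NAc (57.9 ± 4.76 TPM, SD, n = 5) and by Pfkm in the MHb (47.5 ± 18.0 TPM, SD, n = 4). Of the 9 pairs of neighbours in the order of each region, 3 in the IPN (Eno1 and Tpi1, Pfkm and Pgam1, Hk1 and Pgk1), 4 in the MHb (Pkm and Gpi1, Gpi1 and Tpi1, Pgam1 and Pgk1, Hk1 and Pfkm) and 1 in the NAc (Pfkm and Hk1) had means closer to each other than either SD.

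Tpi1 had the place in the order that changed most between regions. In the IPN of TA mice its level was 3293, 3605, 1601, 1648 and 2783 TPM in the 5 libraries, in the MHb 337, 98.6, 109 and 94.9 TPM in the 4 libraries and in the NAc 899, 525, 619, 512 and 1434 TPM in the 5 libraries. Every IPN library was above every NAc library, and every NAc library was above every MHb library. The difference of log2(TPM + 1) between MHb and IPN was -4.16 (SE 0.37) and that between MHb and NAc -2.42 (SE 0.37). The MHb libraries of TA mice entered the contrast by which the genes were chosen, so these differences of Tpi1 are given without a test. The comparison of IPN with NAc does not use that contrast. Its difference was 1.73 (SE 0.35, limma adjusted p = 6.02e-04), and all 19 alternatives kept the call. The order was not seen in TAL mice, in which Tpi1 was at 189, 222 and 120.0 TPM in the IPN, 156, 201, 166, 123 and 159 TPM in the MHb and 158, 176, 253, 225 and 135 TPM in the NAc. These ranges overlap, and the IPN libraries of TAL mice lay far below those of TA mice. TA and TAL mice differ in age and in weeks of treatment, which cannot be told apart. The summed oligodendrocyte markers were at 4139 to 7930.4 TPM for the IPN, 2122 to 4012 TPM for the NAc and 558 to 1179.6 TPM for the MHb of TA mice, and 883 to 1297 TPM in the IPN of TAL mice. The gap between IPN and NAc was that of Mbp, since the other 6 markers summed to 824 to 1321 TPM in the IPN, 830.4 to 1373 TPM in the NAc and 299 to 579 TPM in the MHb. Between IPN and NAc, 1 of the 7 markers was higher (Mbp) and 1 lower (Mog), with a median difference of -0.18. The part of these markers in the differences was not tested.

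**Figure D1:**
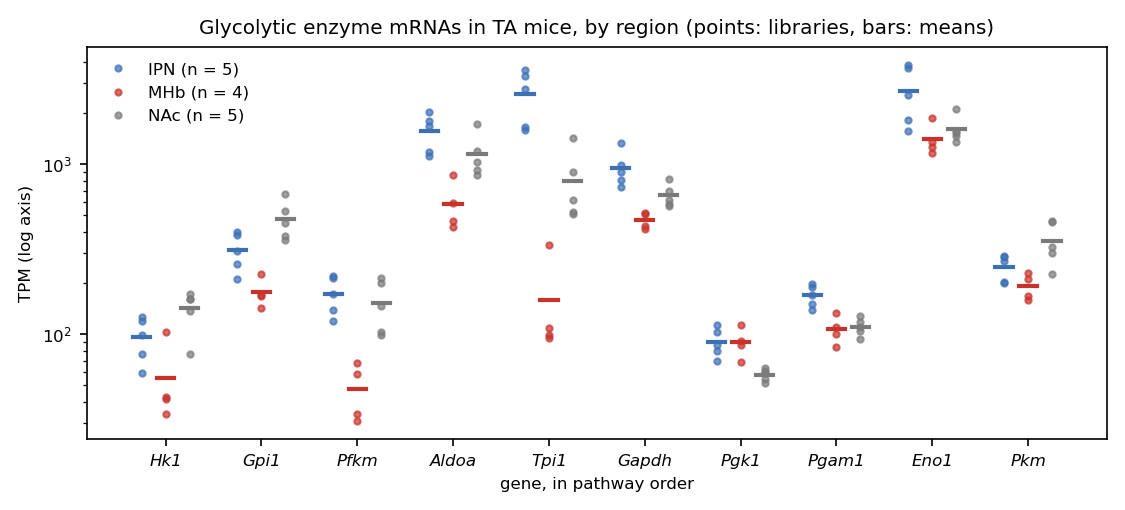
Level of each of the 10 genes in TA mice (vertical axis, TPM, log axis) in pathway order (horizontal axis). Points are libraries of the IPN (n = 5), MHb (n = 4) and NAc (n = 5) and bars are means. Tpi1 shows the widest gap between regions, with means of 2586, 160 and 798 TPM.

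Of the 10 genes, 4 were lower in the MHb than in the IPN and none was higher, beside 10.3% lower and 5.06% higher of all 16648 genes tested. Besides Tpi1 these were Pfkm (-1.88, SE 0.29, limma adjusted p = 6.13e-05), Aldoa (-1.43, SE 0.26, limma adjusted p = 3.45e-04) and Gapdh (-0.99, SE 0.21, limma adjusted p = 0.00119). The MHb level of Tpi1 in these libraries entered the choice of the genes, so nothing is read from its place in the count. The median difference of the 10 was -0.87, that of all genes -0.09. Without the MHb library of TA replicate 1, Hk1 (-1.22), Gpi1 (-0.91), Pgam1 (-0.78) and Eno1 (-1.01) passed the threshold too, which made 8. Pgk1, the kinase of the first ATP-yielding step, had the interval of its difference between -0.43 to 0.43 and a mean of 90.6 TPM in the IPN and 90.5 TPM in the MHb. Under quantile normalization the same number of members, 4, was lower, while the differences of Pgk1 and Pkm became positive, at 0.36 and 0.10.

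Against the NAc, 6 members were lower in the MHb and none was higher, beside 27.3% lower and 6.9% higher of all genes. The median of all genes was itself -0.35, and relative to it Tpi1 was at -2.07, Pfkm at -1.31, Hk1 at -1.08, Gpi1 at -1.06, Aldoa at -0.62 and Pkm at -0.49 on the log2 scale. Nothing is read from the place of Tpi1 among these 6, since the same MHb libraries entered the choice of the genes. Pkm had the largest limma adjusted p of the 6, at 0.00536. The calls of Aldoa and Pkm were each lost in 6 of 19 alternatives. Pgk1 was on the other side, with 114, 87.0, 91.8 and 69.1 TPM in the MHb and 59.7, 60.5, 54.5, 51.7 and 63.4 TPM in the NAc. These groups did not overlap, and the difference was 0.62 (SE 0.21, limma adjusted p = 0.0189, 3.24e-05 to 0.0639 over the alternatives, 2 of which called it). Quantile normalization, which evens out the distributions of the regions, turned the direction of Pgam1 from -0.07 to 0.50 and called Pgk1 and Pgam1 higher and 4 members lower, with all genes split into 2868 higher and 3283 lower instead of 1148 and 4547. Between IPN and NAc, only Tpi1 was called, beside 6.63% higher and 20.2% lower of all genes, and quantile normalization added Gapdh, Pgk1 and Pgam1 as higher and Gpi1 as lower (all genes 2669 higher and 3027 lower instead of 1104 and 3368).

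Over the 15 groups of region and treatment, Tpi1 had by far the widest range of the 10 genes. Its group mean ran from 103 TPM in the IPN of NLWD mice to 3879 TPM in the IPN of Nic mice, a ratio of 37.8. The ratio of the highest to the lowest group mean was 10.5 for Eno1, 9.0 for Pfkm, 8.31 for Hk1, 6.18 for Gapdh, 6.12 for Aldoa, 5.04 for Pkm, 4.00 for Pgam1, 3.84 for Gpi1 and 3.60 for Pgk1. The first 5 genes of the pathway and Eno1 had their highest mean in the IPN of Nic mice, while Gapdh, Pgk1, Pgam1 and Pkm had theirs in the NAc of NLWD mice. In the summed TPM of the 10 genes, Tpi1 made up 28.6% ± 2.05 (SD, n = 5) in the IPN of TA mice and 4.49% ± 2.06 (SD, n = 4) in the MHb of TA mice.

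**Figure D2:**
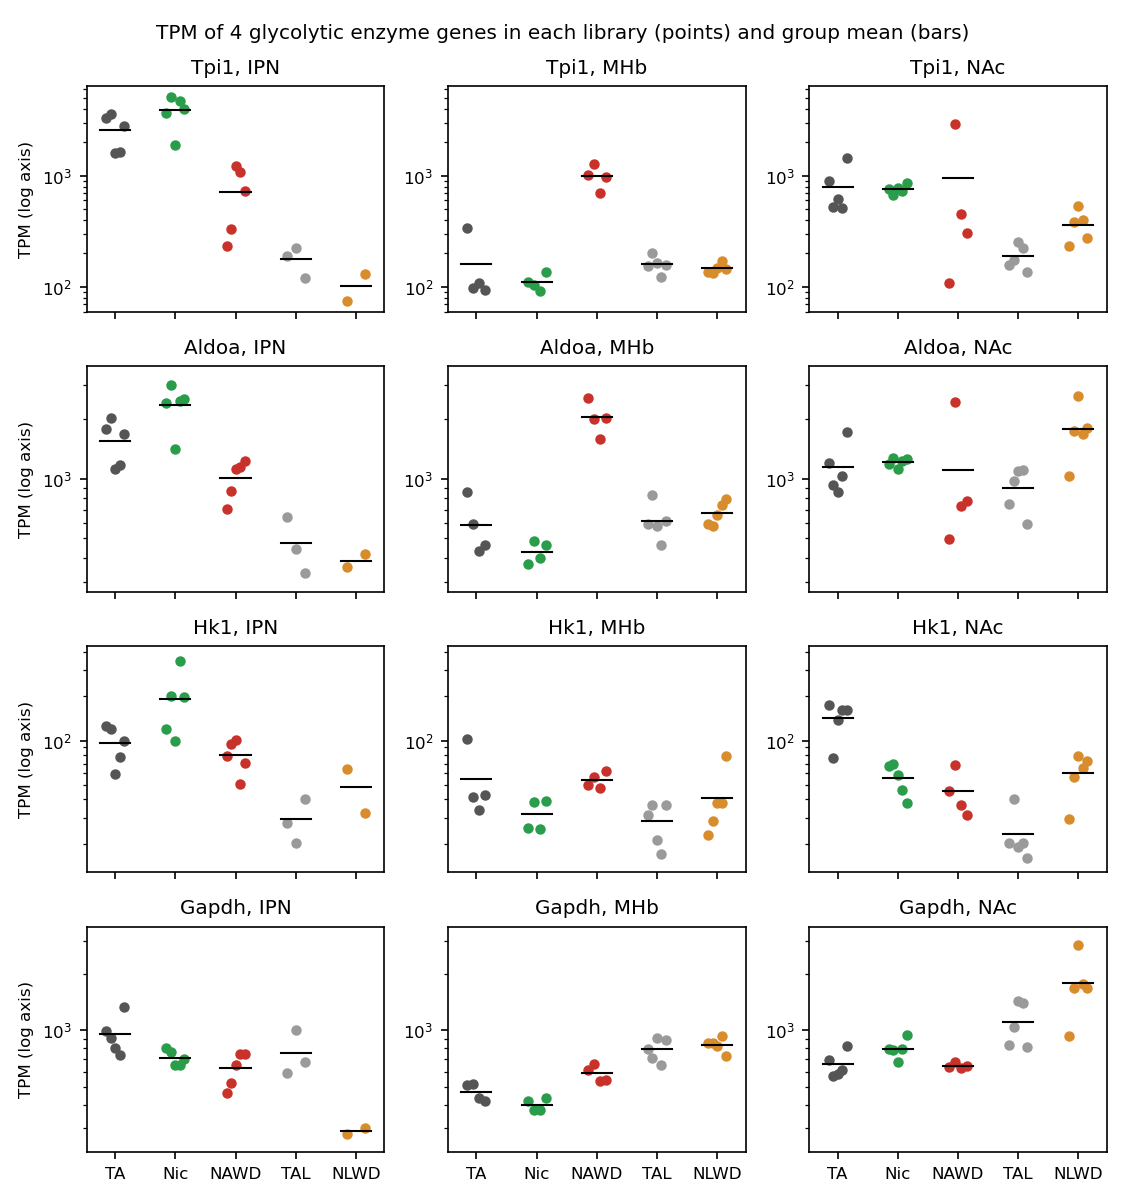
Level of Tpi1, Aldoa, Hk1 and Gapdh (rows, TPM, log axes) in each library (points) and group mean (bars) of the IPN, MHb and NAc (columns), by treatment. In the MHb, Tpi1 and Aldoa of the 4 NAWD libraries lie above all 18 other libraries, and the NAc library with 2933 TPM of Tpi1 stands apart from the other NAWD libraries.

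In the MHb after 48 h of withdrawal, the contrast by which the genes were chosen, Tpi1 and Aldoa stood out from the other 8 members. Tpi1 was at 1014, 1266, 705 and 976 TPM in the 4 NAWD libraries and at 337, 98.6, 109 and 94.9 TPM in the 4 TA libraries, with means of 990.2 ± 229.6 and 159.8 ± 118 TPM (SD, n = 4 each). Aldoa, which makes the substrate of Tpi1, was at 2555, 2017, 1583 and 2033 TPM in NAWD mice and at 863, 594, 429.8 and 464 TPM in TA mice. In both genes every NAWD library was above every TA library. The fitted differences were 2.57 (SE 0.19) for Tpi1 and 1.67 (SE 0.15) for Aldoa, and without TA replicate 1, the library with high Tpi1, 3.22 and 1.95. These 2 members pass the threshold of calls, a number from which nothing is read since the contrast chose the genes, beside 1.08% higher and 0.0588% lower of all 17013 genes.

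The other 8 members did not pass the threshold in the same libraries. Gapdh was at 616, 661, 533 and 542 TPM in NAWD mice and 512, 516, 433 and 417 TPM in TA mice, groups that did not overlap, with a fitted difference of 0.29. Pfkm had a fitted difference of 0.50, Gpi1 of 0.23, Pkm of 0.09, Pgam1 of 0.07, Pgk1 of -0.03 and Hk1 of -0.15. Without TA replicate 1 these differences were 0.65 for Pfkm, 0.36 for Gpi1, 0.15 for Pkm, 0.24 for Pgam1, 0.16 for Pgk1 and 0.28 for Hk1, with Pgk1 and Hk1 then positive. Eno1, the most abundant member, was at 1083 ± 137 TPM in NAWD mice and 1413 ± 319 TPM in TA mice (SD, n = 4 each), a fitted difference of -0.51. The share of Tpi1 in the summed TPM of the pathway was thus 17.9% ± 2.29 in NAWD mice against 4.49% ± 2.06 in TA mice (SD, n = 4 each). The summed oligodendrocyte markers were at 1379 to 2005 TPM in NAWD mice and 558 to 1179.6 TPM in TA mice. Mbp carried that gap, since the other 6 summed to 405 to 517 TPM and 299 to 579 TPM, 1 of the 7 (Mbp) was called higher and the median of the list was 0.04. No marker of the oligodendrocyte list was at 0 in all libraries of a group. The summed microglial markers were at 269 to 318 TPM in NAWD mice and 84.7 to 178 TPM in TA mice, with 2 of 7 called higher. Markers of the medial habenula were at 1309.7 to 1612 TPM and 620.5 to 1170.1 TPM (0 of 9 called), those of the accumbens at 146 to 277 TPM and 56.4 to 106 TPM (1 of 7 called higher, Ppp1r1b), and those of neurons at 1354 to 2088 TPM and 963 to 1648 TPM (0 of 8 called). Of these lists, the summed levels of the neuronal one alone overlapped between the groups. The remaining lists all overlapped. Astrocyte markers were at 207 to 324 TPM and 181 to 362 TPM (0 of 8 called), and endothelial ones at 80.0 to 110 TPM and 46.7 to 88.8 TPM (1 of 6 called higher). Choroid plexus and ependyma, blood and IPN markers overlapped as well, without a call. The part of these markers in the differences was not tested.

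Against Nic mice, a comparison that shares the NAWD libraries and is also given without a test, the same 2 genes stood out. The fitted differences between NAWD and Nic mice were 2.37 (SE 0.23) for Tpi1, with 112, 103, 92.5 and 137 TPM in Nic mice, and 1.78 (SE 0.19) for Aldoa, with 372, 484, 399.9 and 461 TPM in Nic mice. The other 8 had values from -0.12 (Eno1) to 0.76 (Pfkm). The 2 genes past the threshold compare with 0.588% higher and 0.0118% lower of all genes.

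Nicotine itself, while still in the drinking water, left no member past the threshold in the MHb. Limma called 0 of the 10 members and 0% of the 17013 genes, with 2 members and 2109 genes at an unadjusted p under 0.05, and no alternative called a member. The nearest were Pkm, at 127, 157, 132 and 149 TPM in Nic mice and 229.6, 211, 169 and 159 TPM in TA mice, and Eno1, at 653, 1243, 658 and 1087 TPM and 1879, 1166, 1262 and 1345 TPM. The groups did not overlap in Pkm and overlapped in Eno1. The differences were -0.24 (SE 0.10, limma adjusted p = 0.365) and -0.39 (SE 0.17, limma adjusted p = 0.391). For Tpi1, the difference was 0.19 with an interval (95%) of -0.25 to 0.64.

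After 4 weeks of withdrawal the enzymes of the MHb did not stand apart from those of the age-matched controls. Tpi1 was at 136, 134, 149, 171 and 145 TPM in NLWD mice and 156, 201, 166, 123 and 159 TPM in TAL mice, and Aldoa at 591, 581, 661, 739 and 790.1 TPM and 591, 834, 576, 461 and 609 TPM. Both genes overlapped between the groups, and all 10 libraries were below every NAWD library. The difference was -0.15 for Tpi1 (SE 0.12, interval -0.41 to 0.11, limma adjusted p = 0.843) and 0.09 for Aldoa (SE 0.10, interval -0.14 to 0.32, limma adjusted p = 0.900). Limma called 0 of the 10 members, 0% of all 16956 genes as higher and 0.0059% as lower, with 0 members and 1058 genes at an unadjusted p under 0.05, and no alternative called a member.

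In the IPN, Tpi1 of NAWD mice was below that of TA and Nic mice in every library, but no member passed the threshold. Tpi1 was at 235, 335, 1213, 1078 and 728 TPM in NAWD mice, 3293, 3605, 1601, 1648 and 2783 TPM in TA mice and 3646, 5131, 1884, 4711 and 4025 TPM in Nic mice. The highest NAWD library, at 1213 TPM, was below the lowest TA library, at 1601 TPM, the opposite order to that in the MHb. The difference between NAWD and TA mice was -1.21 (SE 0.51, interval -2.29 to -0.12, limma adjusted p = 0.270). Without factors of unwanted variation it was -2.03 (limma adjusted p = 0.00531), and over all 24 alternatives it ran from -2.03 to -0.36 with adjusted p from 0.00531 to 0.763. The difference between the MHb and the IPN in this response was not tested, since the MHb contrast chose the genes.

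Pfkm and Pgam1 also had NAWD libraries of the IPN below all TA libraries. Pfkm was at 67.5, 80.8, 106, 86.5 and 86.5 TPM in NAWD mice and 215, 220.3, 119, 139.5 and 172 TPM in TA mice, a difference of -0.41 (SE 0.17, limma adjusted p = 0.265, 0.0066 to 0.734 over the alternatives). Pgam1 was at 94.5, 97.8, 124, 122 and 103 TPM in NAWD mice and 189.7, 171, 139, 150.1 and 198 TPM in TA mice, a difference of -0.39 (SE 0.12, limma adjusted p = 0.116, 0.00903 to 0.439 over the alternatives). Limma called 0 members of 10, with 5 at an unadjusted p under 0.05, beside 0.0832% higher and 0.0388% lower of all 18028 genes and 2794 genes at an unadjusted p under 0.05. Without factors, Tpi1, Pfkm and Pgam1 were called lower, beside 8.68% lower of all genes, whose median was then -0.35.

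The members that differed from Nic mice depended on the factors as well. With factors, limma called 0 of 10 members between NAWD and Nic mice, 0.00555% of all genes as higher and 0% as lower, with 1 member and 2521 genes at an unadjusted p under 0.05. Without factors, 6 members were called lower (Hk1, Gpi1, Pfkm, Aldoa, Tpi1 and Eno1, from -2.62 for Tpi1 to -1.17 for Hk1), beside 58.3% lower of all genes, whose median was then -0.64. In these 6 members no NAWD library overlapped a Nic library except in Hk1, at 51.0 to 101 TPM in NAWD mice and 99.4 to 348 TPM in Nic mice. Hk1 and Eno1 were positive with factors, at 0.23 and 0.48, and negative without, at -1.17 and -1.18. The summed oligodendrocyte markers of the IPN were at 1339.7 to 2655 TPM in NAWD mice, 4139 to 7930.4 TPM in TA mice and 5279 to 14869 TPM in Nic mice, with 595 to 669, 824 to 1321 and 1119.95 to 2402 TPM without Mbp, and neuronal markers at 1163 to 1493, 1515 to 2881 and 2293 to 4724 TPM. The share of reads that mapped to several places was 17.8% to 20.4% in NAWD mice, 12.3% to 19.1% in TA mice and 7.77% to 13.0% in Nic mice. Their part in these differences was not tested.

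With nicotine in the water, most members had higher means in the IPN, and these differences were smaller or turned in the fit with factors. Without factors the marker lists ran the same way, with medians from 0.05 for microglia to 0.78 for oligodendrocytes and only blood negative, at -1.04. Aldoa was at 2418, 2972, 1417, 2468 and 2540.2 TPM in Nic mice against 1796, 2037, 1119.6, 1181 and 1686 TPM in TA mice, and Hk1 at 119.9, 199.9, 99.4, 348 and 197 TPM against 126, 120.1, 59.2, 77.0 and 98.8 TPM. Both genes overlapped between the groups, and the fitted differences were 0.14 and 0.21. Pgam1 had the smallest p, at 155, 150.5, 129, 141 and 126 TPM in Nic mice, a difference of -0.45 (SE 0.11, limma adjusted p = 0.119). Gapdh followed at 800.2, 762, 651, 651 and 704 TPM in Nic mice and 986, 904, 804, 735 and 1331 TPM in TA mice, a difference of -0.50 (SE 0.18, limma adjusted p = 0.25). Limma called 0 of 10 members and 0% of all genes, with 3 members and 2506 genes at an unadjusted p under 0.05, and no alternative called a member.

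The IPN at 4 weeks rests on 2 NLWD and 3 TAL libraries. Gapdh was at 278 and 299 TPM in NLWD mice and 591, 1009 and 679.9 TPM in TAL mice, and Tpi1 at 74.6 and 131 TPM and 189, 222 and 120.0 TPM. The groups did not overlap in Gapdh and overlapped in Tpi1. The differences were -1.37 (SE 0.75, limma adjusted p = 0.732) and -0.86 (SE 0.61, limma adjusted p = 0.785). Pgk1 was listed at 0 in the TAL library of replicate 4 and at 92.3 and 103 TPM in the other 2, so no fold is given for it. Limma called 0 of 10 members, 0.0783% of all 12770 genes as higher and 0.00783% as lower, with 0 members and 910 genes at an unadjusted p under 0.05, and no alternative called a member.

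In the NAc, Hk1, which starts the pathway, was the 1 member that passed the threshold for nicotine. It was at 67.3, 69.6, 58.7, 46.2 and 37.6 TPM in Nic mice and 174, 76.7, 137, 162 and 161 TPM in TA mice. Every Nic library was below every TA library. The difference was -0.92 (SE 0.18, interval -1.31 to -0.53, limma adjusted p = 0.00964), and the call was kept in 7 of 23 alternatives, over which the adjusted p ran from 0.0011 to 0.0476 and the difference from -1.31 to -0.77. Leaving out any library other than TA replicate 2 or NAWD replicate 4 ended the call. This 1 member lower and 0 higher stand beside 1.37% lower and 0.576% higher of all 17182 genes. The share of reads mapped to several places was 13.8% to 18.9% in Nic mice and 9.03% to 14.1% in TA mice, the neuronal markers summed to 1223 to 2106 TPM and 1296 to 2954 TPM, and the astrocyte markers to 232 to 449 TPM and 407 to 708 TPM. None of the 8 neuronal and 8 astrocyte markers was called, while 3 of 5 blood markers (Hba-a1, Hba-a2 and Hbb-bs, median of the list -0.88) were lower in Nic mice. Their part in the difference was not tested.

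The other members of the NAc did not all lie on that side. Eno1 was at 867, 921, 960.5, 861 and 1069 TPM in Nic mice and 1464, 1351, 1572, 1537 and 2124 TPM in TA mice, groups that did not overlap, with a difference of -0.52 (SE 0.20, limma adjusted p = 0.0852, and -0.77 with adjusted p = 0.00974 without NAWD replicate 2). Gpi1 did not overlap either, at 192 to 335 TPM in Nic mice and 359 to 672 TPM in TA mice, with a difference of -0.34 (limma adjusted p = 0.0824). Pgam1 was at 156, 160.1, 122, 107 and 123 TPM in Nic mice and 118, 105, 93.3, 109.6 and 128 TPM in TA mice, and these groups overlapped. Its difference was 0.44 (SE 0.13, limma adjusted p = 0.0294). Tpi1 was at 761 ± 64.9 TPM in Nic mice and 798 ± 388 TPM in TA mice (SD, n = 5 each), and its fitted difference of 0.84 had an interval of -0.26 to 1.95.

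At 48 h of withdrawal in the NAc, Hk1 was again below all TA libraries. It was at 45.9, 68.5, 36.7 and 31.1 TPM in NAWD mice, a difference from TA mice of -1.11 (SE 0.21, limma adjusted p = 0.0341, 0.00229 to 0.125 over 23 alternatives). Limma called 0 of 10 members and 0% of all genes, with 1 member and 3688 genes at an unadjusted p under 0.05, and without TA replicate 2 it called Hk1. Tpi1 was at 109, 2933, 452 and 303 TPM in NAWD mice. Its difference from TA mice was 0.38 with NAWD replicate 2 and -1.44 without it (limma adjusted p = 0.767 and 0.181). With that library but without factors it was -0.68 (limma adjusted p = 0.454). The direction of Tpi1 thus depended on this library and on the factors. Aldoa of NAWD replicate 2 was at 2455 TPM, where the other 3 had 499, 726 and 776 TPM. That library had 10.2% of reads mapped to several places, where the other 3 had 20.6% to 22.1%. Between NAWD and Nic mice limma called 0 of 10 members, 0% of all genes as higher and 0.0175% as lower, with 1 member and 2604 genes at an unadjusted p under 0.05, and no alternative called a member.

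After 4 weeks of withdrawal, all 10 members of the NAc had higher means in NLWD than in TAL mice, with plain differences of 0.60 to 1.35 on the log2 scale, and none passed the threshold in the fit. Eno1 was at 666, 777, 1070.3, 787 and 782 TPM in NLWD mice and 275, 459, 349.5, 373 and 289 TPM in TAL mice. Every NLWD library was above every TAL library. The difference was 0.84 (SE 0.14, limma adjusted p = 0.0465, 0.00657 to 0.377 over 16 alternatives). Without factors it was 1.23 and called, beside 0.612% higher of all genes, whose median was then 0.40. Gpi1, Pfkm, Hk1, Pkm and Tpi1 had fitted differences of 0.52, 0.53, 0.57, 0.42 and 0.40 (limma adjusted p from 0.0591 for Pfkm to 0.228 for Tpi1). Aldoa was at 0.30, and Gapdh, Pgk1 and Pgam1 were at -0.04, -0.08 and -0.08. Limma called 0 of 10 members and 0% of all 17972 genes, with 6 members and 2626 genes at an unadjusted p under 0.05. The oligodendrocyte markers were at 1529 to 4711 TPM in NLWD mice and 1023 to 1889.6 TPM in TAL mice (670.2 to 1707 and 457 to 889 TPM without Mbp), and their part was not tested.

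**Figure D3:**
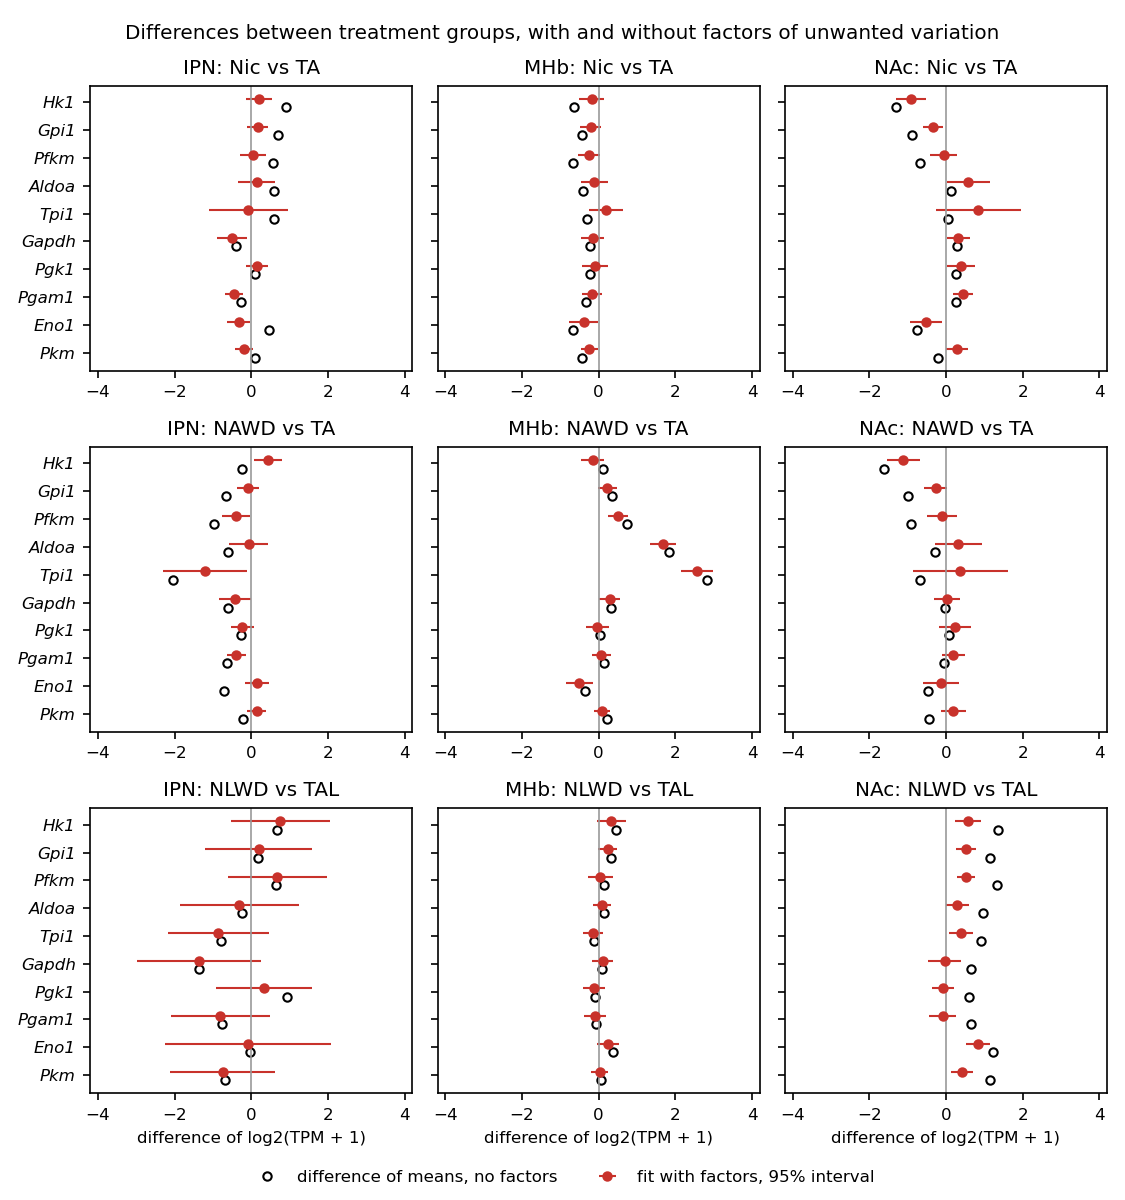
Difference of log2(TPM + 1) (horizontal axis) of each member (vertical axis) between the groups named above each panel, as the plain difference of means (open circles) and from the fit with factors (filled circles, with 95% intervals). The panel of NAWD against TA mice in the MHb, with Tpi1 at 2.57 and Aldoa at 1.67, is the contrast by which the genes were chosen, and Pgk1 in the IPN at 4 weeks includes a library listed at 0.

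Whether the response to nicotine differed between regions was tested for the IPN and MHb against the NAc. Hk1 differed between IPN and NAc in its response to nicotine, by 1.12 (SE 0.25, limma adjusted p = 0.00913): the fitted change was 0.21 in the IPN and -0.92 in the NAc. Pgam1 differed the other way, by -0.90 (SE 0.17, limma adjusted p = 0.00487), with -0.45 in the IPN and 0.44 in the NAc. These 2 calls stand beside 1.31% higher and 0.632% lower of all 16623 genes. The call of Hk1 was kept in 13 of 35 alternatives (adjusted p from 0.000334 to 0.0918) and that of Pgam1 in 28 of 35 (adjusted p from 0.000424 to 0.0766). Leaving out IPN TA replicate 1, IPN Nic replicate 3 or 5, or NAc TA replicate 3 or 4 ended both.

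Hk1 also differed between these regions at 48 h of withdrawal, by 1.55 (SE 0.28, limma adjusted p = 0.00128), with fitted differences of 0.44 in the IPN and -1.11 in the NAc. The IPN means ran the other way, at 79.6 ± 20.1 TPM in NAWD mice and 96.2 ± 28.2 TPM in TA mice (SD, n = 5 each). That call, 1 of 10 members, stands beside 1.82% higher and 0.457% lower of all genes and was kept in 32 of 35 alternatives, with an adjusted p of 0.198 without factors and a range from 4.68e-05 to 0.198. Without NAc NAWD replicate 2 the difference was 1.54 (limma adjusted p = 0.0102). For Tpi1 the difference between the regions was -1.58 (SE 0.83, limma adjusted p = 0.242). Both tests share the TA libraries. Between MHb and NAc, limma called 0 of 10 members for nicotine, 0.00621% of all 16114 genes in each direction, with 4 members and 3387 genes at an unadjusted p under 0.05, and Pgam1 had the smallest p (-0.59, SE 0.17, limma adjusted p = 0.0601).

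The other isozymes of a step did not move with the member in each case. In the MHb, Aldoa made up 61.9% ± 5.82 of the TPM of the aldolases in TA mice, 60.7% ± 3.78 in Nic mice and 87.3% ± 3.85 in NAWD mice (SD, n = 4 each), while Aldoc was at 346 ± 30.6, 279 ± 45.8 and 288 ± 57.0 TPM (SD, n = 4 each). Aldoa and Aldoc thus had different patterns in the same libraries, the former being the gene with the high value at 48 h. In the IPN the share of Aldoa was 66.0% in TA mice, 42.1% in TAL mice and 38.2% in NLWD mice on average. In the NAc of Nic mice the share of Aldoa was 74.9% ± 1.31 (SD, n = 5), with Aldoc at 406 ± 29.1 TPM against 618 ± 119 TPM in TA mice (SD, n = 5 each).

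The isozymes also told the regions apart. Pgam2, the muscle form of phosphoglycerate mutase, made up 30.8% ± 1.27 (SD, n = 5) of its step in the NAc of TA mice, at 49.4 ± 5.72 TPM (SD, n = 5), against 5.37 ± 1.46 TPM (SD, n = 5) in the IPN and 7.44 ± 1.23 TPM (SD, n = 4) in the MHb. These differences were 3.01 lower in the IPN (limma adjusted p = 9.26e-10) and 2.58 lower in the MHb (limma adjusted p = 1.44e-08) on the log2 scale. Within the NAc, the mean share of Pgam2 was 18.1% in Nic mice, 23.9% in NAWD mice, 12.6% in TAL mice and 13.7% in NLWD mice. Eno2 was at 530 ± 175 TPM (SD, n = 5) in the NAc and 112 ± 44.2 TPM (SD, n = 4) in the MHb of TA mice, a difference of -2.24 for MHb against NAc (limma adjusted p = 6.39e-06), and it made up as much as 38.3% of the enolases in the NAc of TAL mice. Eno1 made up 83.9% to 91.6% of the enolases over the groups of the MHb, with the lowest share in NAWD mice. Hk1 held 92.4% to 99.2% of the hexokinases in each group, and Pfkm from 31.0% (IPN of TAL mice) to 72.5% (IPN of TA mice) of the phosphofructokinases.

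**Figure D4:**
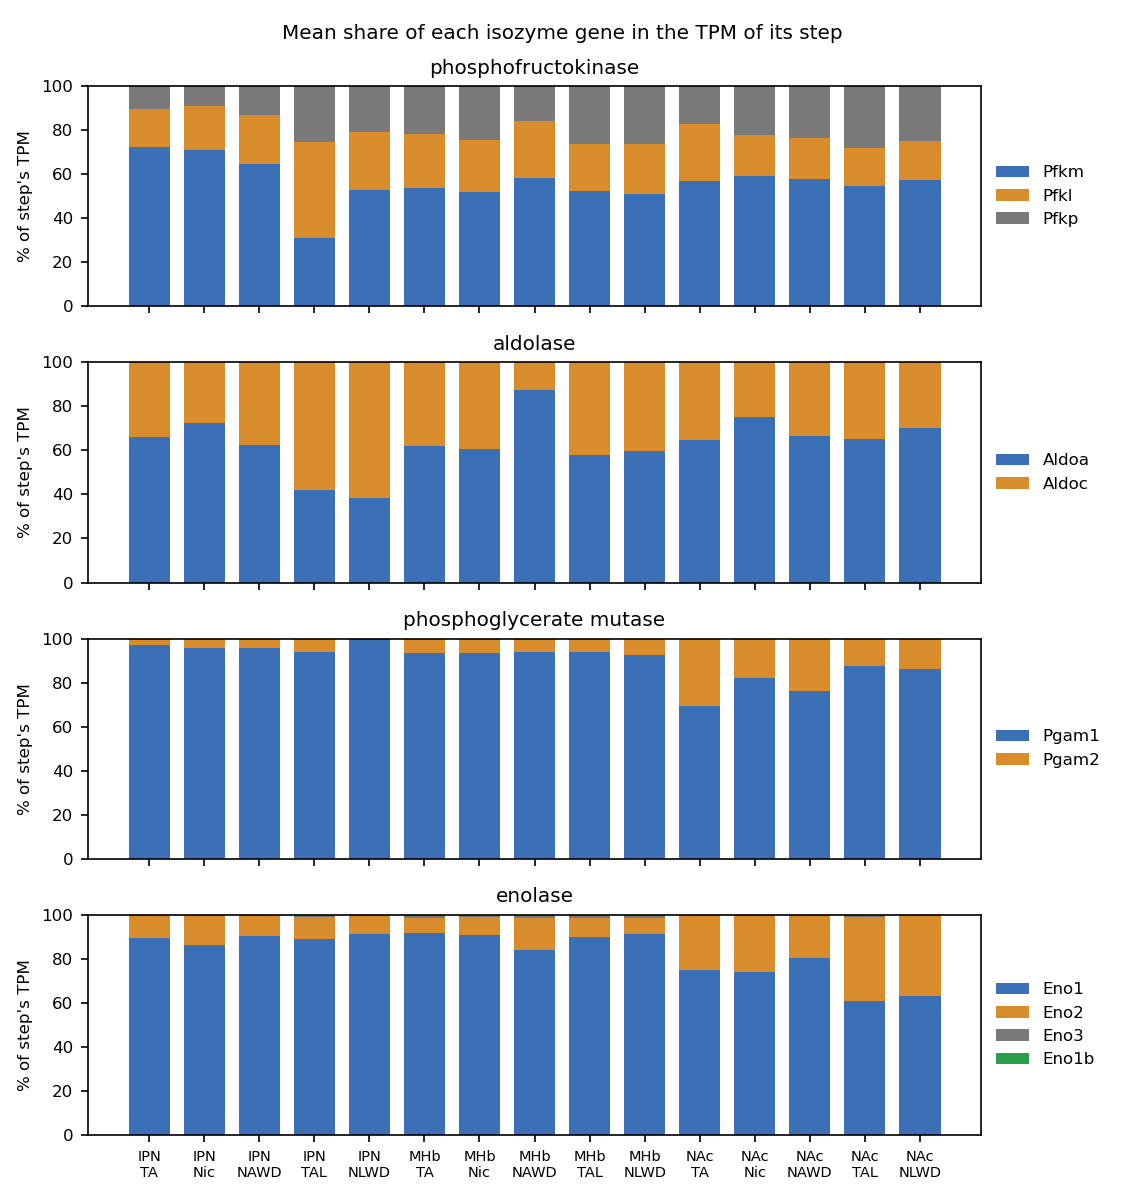
Mean share of each isozyme gene in the TPM of its step (vertical axis, %) for each region and treatment group (horizontal axis) and 4 steps. Aldoa reaches 87.3% of the aldolases in the MHb of NAWD mice, and Pgam2 reaches 30.8% of the mutases in the NAc of TA mice.

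Genes around glycolysis were examined as 10 lists of 111 genes (other glycolytic genes, glucose and lactate transporters, pyruvate metabolism, regulators of the pathway, the pentose phosphate path, NADH shuttles, glycogen, the citric acid cycle, methylglyoxal detoxification and reference genes). In the comparisons of treatments these lists were nearly without calls, and the shares of all genes called were low too. Limma called none of 106 genes tested in the IPN in Nic or NAWD mice against TA mice (22 and 23 genes at an unadjusted p under 0.05). Of all 18028 genes, 0% and 0.0832% were higher and 0% and 0.0388% lower, with 2506 and 2794 at that p. It called none of 105 in the MHb of Nic mice (14) and none of 105 in the NAc of NAWD mice (26). Of all genes, 0% were called in either, with 2109 of 17013 and 3688 of 17182 at that p. At 4 weeks it called none of 93, 106 and 106 genes in the IPN, MHb and NAc (3, 5 and 24 genes at an unadjusted p under 0.05). Of all genes, 0.0783%, 0% and 0% were higher and 0.00783%, 0.0059% and 0% lower. At an unadjusted p under 0.05 were 910 of 12770, 1058 of 16956 and 2626 of 17972 genes. In the NAc of Nic mice 1 of 105 was called higher, beside 0.576% higher and 1.37% lower of all genes. It was the reference gene Actb, which encodes the cytoskeletal beta-actin, at 311 ± 58.6 TPM against 207 ± 44.7 TPM in TA mice (SD, n = 5 each, difference 0.90, limma adjusted p = 0.00872). In the MHb of NAWD mice, given as a description, 2 of 105 genes were past the threshold, beside 1.08% higher and 0.0588% lower of all genes. These were Bpgm, whose enzyme diverts a glycolytic intermediate to 2,3-bisphosphoglycerate, at 25.6 ± 5.76 against 12 ± 3.04 TPM, and Got2, the mitochondrial aminotransferase of the malate-aspartate shuttle, at 74.8 ± 13.0 against 38.4 ± 13.3 TPM (SD, n = 4 each).

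Between regions of TA mice the same lists held more calls. Of 104 genes tested, 6 (5.77%) were higher and 12 (11.5%) lower in the MHb than in the IPN, beside 5.06% and 10.3% of all genes. Against the NAc, 10 (9.62%) were higher and 27 (26.0%) lower in the MHb, beside 6.9% and 27.3% of all genes. These shares lie near those of all genes. Their median differences were -0.21 and -0.38, and those of all genes -0.09 and -0.35. Ldha, the lactate dehydrogenase subunit that favours making lactate, was at 111 ± 45.6 TPM in the MHb (SD, n = 4), 414 ± 133 TPM in the IPN and 474 ± 123 TPM in the NAc (SD, n = 5 each), with differences of -1.90 (limma adjusted p = 2.84e-05) and -2.12 (limma adjusted p = 3.57e-06). Slc2a3, the neuronal glucose transporter, was at 8.41 ± 1.78 TPM in the MHb (SD, n = 4), 20.1 ± 3.84 TPM in the IPN and 52.2 ± 16.8 TPM in the NAc (SD, n = 5 each), with differences of -1.17 (limma adjusted p = 0.00159) and -2.46 (limma adjusted p = 1.43e-07). Pfkfb3, whose enzyme makes the activator of phosphofructokinase, was at 3.20 ± 1.74 TPM in the MHb (SD, n = 4), 19.5 ± 8.33 TPM in the IPN and 18.1 ± 4.80 TPM in the NAc (SD, n = 5 each). The MHb was thus lowest in these 3 genes, which were named from their lists for their calls, so nothing is read from their shared direction. Bsg, the partner protein that brings lactate transporters to the membrane, was on the other side, at 374 ± 86.9 TPM in the MHb (SD, n = 4) against 194 ± 23.5 TPM in the NAc (SD, n = 5), a difference of 0.92. Pygm, the muscle form of glycogen phosphorylase, was at 47.9 ± 10.3 TPM in the IPN and 10.7 ± 3.22 TPM in the NAc (SD, n = 5 each), a difference of 2.08. The reference genes were not level between regions either, with Ywhaz, of the 14-3-3 family, at 714 ± 174 TPM in the NAc of TA mice (SD, n = 5).

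Tpi1 moved with the summed oligodendrocyte markers over libraries of the IPN. All 10 libraries of TA and Nic mice were above all 5 NAWD libraries in Tpi1 as well as in the summed markers, with Mbp or without it. Among the NAWD libraries this did not hold without Mbp. Replicate 1 had the lowest Tpi1, at 235 TPM, with the most of the other 6 markers, at 669 TPM. Replicate 3 had the highest Tpi1, at 1213 TPM, with 650 TPM of those markers. In the MHb, the NAWD libraries and TA replicate 1 had the highest values of Tpi1 and of the summed markers. Without Mbp, TA replicate 1 (579 TPM) was above all 4 NAWD libraries (405 to 517 TPM). So were TAL replicate 2 (555 TPM) and NLWD replicate 5 (553 TPM), with Tpi1 at 201 and 145 TPM. In the NAc the highest value of both was that of NAWD replicate 2. Without Mbp, NLWD replicate 3 was the highest there, at 1707 TPM with Tpi1 at 532 TPM, against 1529.8 TPM in NAWD replicate 2. These points share the library and with it the total against which TPM is set, and no test was made. In the MHb, Mbp was at 1136 ± 243 TPM in NAWD mice against 384 ± 155 TPM in TA mice (SD, n = 4 each). In the share of reads mapped to several places, the NAWD libraries of the MHb had 15.1% to 17.6% and the Nic libraries 20.2% to 26.0%, while TA replicate 1 had 13.8% and the other TA libraries 17.7% to 20.8%.

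**Figure D5:**
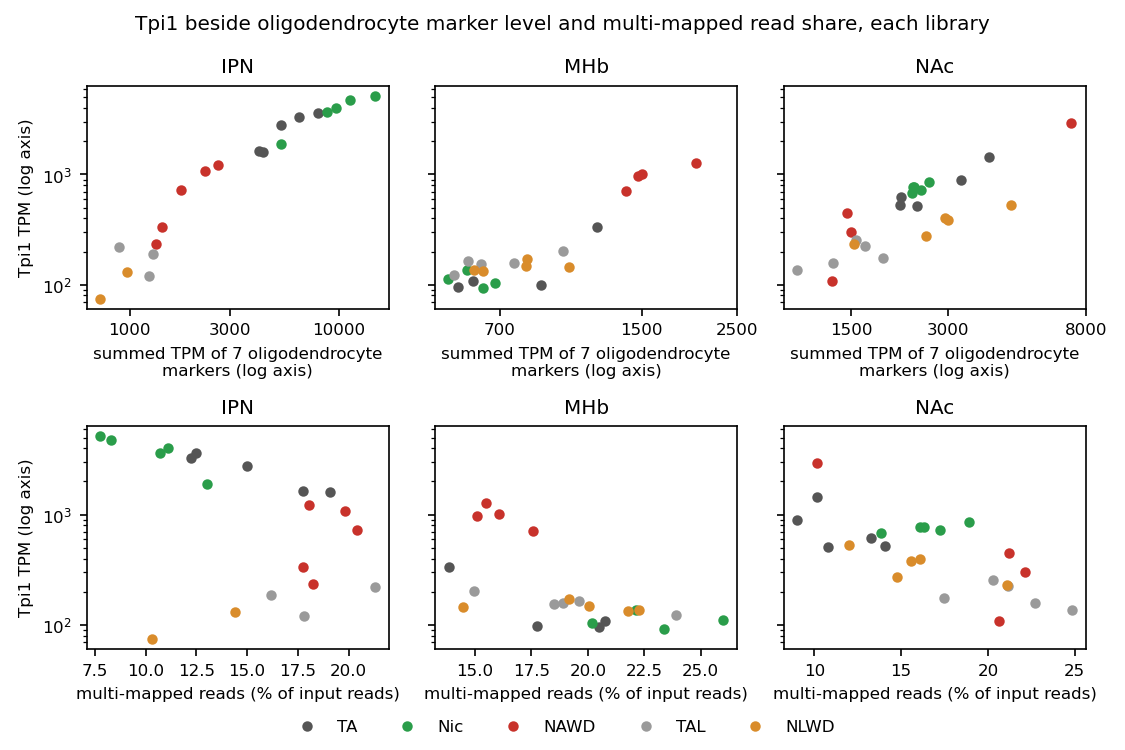
Tpi1 (vertical axes, TPM, log) in each library beside the summed TPM of 7 oligodendrocyte markers (upper row, log axes) and the share of input reads mapped to several places (lower row, %) in the IPN, MHb and NAc, with points coloured by treatment. In the IPN, Tpi1 is highest in the libraries with most of the markers, up to 14869 TPM, and in the MHb the 4 NAWD libraries lie highest on both axes, at 1379 to 2005 TPM of markers, of which Mbp made up 68.3% to 74.2%.

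Within groups, the members varied together over libraries, most in the NAc. With each group's mean taken out, 36 of 45 pairs of members had a positive correlation in the IPN (median r 0.42, 20 libraries), 44 of 45 in the MHb (median r 0.64, 22 libraries) and 45 of 45 in the NAc (median r 0.67, 24 libraries). The libraries share the total against which TPM is set, and these values are a description. The member with the weakest tie to the others was Hk1 in the IPN (median r 0.17), Gapdh in the MHb (median r 0.18) and Pgk1 in the NAc (median r 0.53).

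Among 4813 genes with a mean of at least 10 TPM over the 22 MHb libraries, the 5 with the pattern most like that of Tpi1 were Fbl (Pearson r of log2(TPM + 1) 0.981), Mbd3 (0.974), Aldoa (0.961), Myl9 (0.961) and Prkag1 (0.961). Fbl encodes the nucleolar methyltransferase fibrillarin and was at 149 ± 24.8 TPM in NAWD mice and 36.7 ± 22.8 TPM in TA mice (SD, n = 4 each). Mbd3, of the NuRD chromatin complex, was at 439 ± 84.2 and 87.6 ± 58.3 TPM, Myl9, a myosin light chain, at 79.4 ± 23.8 and 17.1 ± 20.5 TPM, and Prkag1, a subunit of the energy sensor AMPK, at 172 ± 37.8 and 23.9 ± 27.9 TPM in the same order (SD, n = 4 each). All of these were thus high in the libraries in which Tpi1 was high. The NAWD and TA libraries among the 22 are those whose Tpi1 level chose the genes, so these levels are a description.

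The nearest annotated genes on either side of Tpi1 on chromosome 6 were Eno2, Lrrc23, Spsb2, Usp5, Cdca3 and Gnb3. Usp5, a deubiquitinase, was at 34.2 ± 5.97 TPM in NAWD mice and 28.5 ± 8.98 TPM in TA mice of the MHb (SD, n = 4 each), and Eno2 at 190 ± 31.2 and 112 ± 44.2 TPM (SD, n = 4 each). In the IPN, Eno2 was at 157 ± 10.0 TPM in NAWD mice and 297 ± 113 TPM in TA mice (SD, n = 5 each), and Usp5 at 30.2 ± 2.76 and 59.6 ± 16.0 TPM (SD, n = 5 each). Both neighbours thus had a smaller ratio between these groups than Tpi1 itself, with its means of 990 and 160 TPM in the MHb and 718 and 2586 TPM in the IPN. Spsb2, Cdca3 and Gnb3 were below 6 TPM on average in both regions, and Lrrc23 was at 20.1 ± 5.30 and 13.9 ± 6.29 TPM in the MHb (SD, n = 4 each).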

How the data were processed

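Punches of 4 male mice were pooled per library, and mRNA was sequenced in 66 libraries from the RNA left after small RNA was cut from a gel, with a stranded poly(A) protocol and paired ends. The authors mapped reads with STAR 2.5.3a to mm10, estimated levels of genes with RSEM 1.3.0 and deposited these as TPM. The read counts per library (input, mapped to 1 place, mapped to several places) are totals deposited by the authors. Their tables of fold changes and FDR, from DESeq2 1.14.1 with RUVSeq, and the miRNA tables were not used here. Of 43432 gene identifiers 42462 had a symbol, and 0 sample columns were left unmapped.

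The moderated test of limma 3.58.1 with a trend (R 4.3.3) was run on log2(TPM + 1) for each gene above 0 TPM in 0.5 or more of the libraries in every group, with Benjamini-Hochberg adjusted p under 0.01 over all genes tested. TA, Nic and NAWD libraries of a region entered one fit and TAL and NLWD libraries another. Factors of unwanted variation took their gene weights from differences among libraries of one group over all genes, a form assumed here. There were 2 factors in the IPN and MHb and 1 in the NAc for the first fit, and 1 and 2 for the second. The value of a factor in a library came from its full levels, so factors can also carry differences between groups. Comparisons of regions used TA libraries without factors. Labels do not say whether pools of one number hold the same brains. Plots were made in matplotlib 3.10.9 under Python 3.11.15.

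The members and the gene lists were chosen with earlier results of these data known. All 10 members are named. From each list of related genes, up to 4 called genes of smallest adjusted p with a mean of at least 5 TPM could be named, and the other isozymes always. For Tpi1, the 5 most alike genes in the MHb and 3 neighbours on each side are named. Alternatives were a pseudocount of 0.1, no filter, a filter at a mean of 1 TPM, a fold over 2, no factors, quantile normalization, fitting only the groups compared, using libraries 1 to 4, a block by replicate number and leaving out each library. No factors with only the groups compared was chosen after seeing the data. Between treatments of one region, replicate numbers did not pair libraries throughout: in 0 of 11 pairs of groups was every correlation of same-numbered libraries over 0.1 (range -0.44 to 0.56). Such correlations were not taken between regions, so pairing by brain across regions remains unknown. The fits were tested on simulated data with known changes. TPM keeps no depth, so no counting interval is given. Some genes of the marker lists are not reported here and were left out of the sums and counts.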

Additional observations from a re-analysis of the deposited data

Results flagged for a closer look

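Of 130 sets of values, each of 1 member in 1 group of 4 or 5 libraries, 12 had 1 library far from the others. Chance gives about 1 in 20 sets, or 6.5. The members share libraries and vary together, so the sets are not independent and 12 cannot be judged against that number. In the NAc of NAWD mice, replicate 2 was such a library in 6 members, with 538.09 TPM of Gpi1, 199.26 TPM of Pfkm, 2455.02 TPM of Aldoa, 2932.71 TPM of Tpi1, 2112.9 TPM of Eno1 and 480.28 TPM of Pkm, all from the same library. In the MHb of TA mice, replicate 1 had 336.71 TPM of Tpi1 and 102.55 TPM of Hk1. Single values far from their group were also those of Eno1 in the MHb of TAL mice, at 2178.12 TPM in replicate 2, and in the NAc of TA mice, at 2124.19 TPM in replicate 5. Hk1 had such values in the MHb of NLWD mice, at 78.37 TPM in replicate 5, and in the NAc of TAL mice, at 40.48 TPM in replicate 2.

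The response of 2 members differed between regions by a test of the difference itself. Hk1 differed between IPN and NAc by 1.12 for nicotine and by 1.55 for 48 h of withdrawal on the log2 scale, and Pgam1 by -0.90 for nicotine, tests that share the TA libraries. None of these calls was kept in all alternatives, and that of Hk1 at 48 h was lost without factors. The IPN means of Hk1 ran against its fitted change, at 79.6 TPM in NAWD mice and 96.15 TPM in TA mice.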

How the results depend on the processing

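Over the 18 comparisons, 4050 values of single members under alternatives kept their side of the threshold in 3933 cases. A call was lost in 63 and gained in 49, and 5 turned direction with a call. Turns of values short of the threshold were not counted among these 5. One such value was Tpi1 in the NAc (NAWD against TA), at 0.38 with factors and -0.68 without. Numbers of members called changed as follows, and the cause was not tested. Without factors they were 3 (IPN, NAWD against TA), 6 (IPN, NAWD against Nic), 1 (NAc, NLWD against TAL) and 0 (IPN minus NAc, NAWD). Without factors and with only the groups compared they were 2 and 6 in the IPN comparisons, 5 in the MHb (NAWD against Nic) and 2 in the NAc (Nic against TA). With only the groups compared, 1 was called in the MHb (NAWD against TA) and 0 in the NAc (Nic against TA). The latter was also 0 with no filter, with a fold over 2 and with libraries 1 to 4. With no filter there were 3 (IPN against NAc) and 1 (IPN minus NAc, Nic), and the latter was also 1 with a fold over 2. Quantile normalization gave 5 (IPN against NAc) and 3 (IPN minus NAc, NAWD). In the IPN (NAWD against Nic), Hk1 turned to -1.17 and Eno1 to -1.18 without factors, in both forms, and Pgam1 turned to 0.50 (MHb against NAc) under quantile normalization.

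Leaving out 1 library gave 1 to 3 members (MHb, NAWD against Nic, 1 without Nic replicate 2 and 3 without TA replicate 1), 0 to 1 (NAc, Nic against TA), 0 to 1 (NAc, NAWD against TA), 4 to 8 (MHb against IPN), 4 to 6 (MHb against NAc), 0 to 1 (IPN minus NAc, NAWD) and 0 to 2 (IPN minus NAc, Nic), and left the other comparisons as they were.

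A block by replicate number gave 1 member (MHb, NAWD against Nic), 0 (NAc, Nic against TA), 4 (IPN against NAc) and 0 in both differences between IPN and NAc. It gave 6 and 7 for MHb against IPN and NAc. The numbers did not pair libraries throughout between treatments of a region, and pairing between regions was not examined. No paired analysis was possible because the groups share no number for NLWD against TAL mice in the IPN.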
